A study of Mus musculus with 2 samples.

Results

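The genes of early B cell development examined here were Vpreb1, Vpreb3, Igll1, Rag1, Rag2, Cd79a, Cd79b, Ebf1 and Pax5, 9 genes among the 43346 Ensembl genes in each table. They were chosen by name as genes of the pro-B, pre-B and mature stages, and all 9 were matched by Ensembl identifier. RNA was measured in the livers of 2 B6NCrl mouse pups on postnatal day 0, pup 1 and pup 2, which the labels assign to 1 dam. Each library came from 1 whole liver and began with 10 ng of RNA longer than 200 nt; no treatment, transgene or allele is named, and the sex was not collected. The libraries held 42124582 expected counts for pup 1 and 41443673 for pup 2, and 12332 genes were detected, that is, reached 1 TPM in both livers. TPM is the share of a gene among all transcripts, corrected for length and scaled to the same total in each library, so it compares genes as well as livers. There was 1 group, so the data describe levels and the spread between littermates.

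In the fetal and newborn mouse the liver is a site of B cell formation, which later moves to the bone marrow. Pro-B cells, specified by the transcription factors EBF1 and PAX5, cut and join heavy chain gene segments with the RAG1-RAG2 recombinase. A completed heavy chain is then tested at the pre-B stage in a receptor with the surrogate light chain, made of VPREB1 and lambda5 (Igll1), and the signalling chains CD79A and CD79B. Mature B cells replace the surrogate chain with a kappa or lambda light chain and keep CD79A and CD79B.

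Promoter windows of the members are shown first, because E proteins such as the product of Tcf3, which bind the E-box CAGGTG, and EBF1 act on several of these genes. RefSeq windows on GRCm38.p6, from 250 bases before to 50 after the start site, were found for 8 of the 9 members; Cd79b had no window, and Ebf1 had 2. The E-box CAGGTG, searched on both strands, was present in 4 of the 9 windows, those of Vpreb1, Igll1, Cd79a and Rag1, and in 20.2% of 32851 windows of the same length. It began 88 bases before the start site in Vpreb1, 8 in Igll1 (on the opposite strand, so read as CACCTG), 154 in Cd79a and 135 in Rag1. The EBF core CCCNNGGG, which is the same on both strands, matched only in Igll1, 231 bases before the start site, against 13.7% of all windows. TATAAA matched in no member window (13.6% of all windows), and GGGCGG matched only in Pax5 (35.7% of all windows). The run CTCAAGGG, chosen after the windows were seen, occurred in Cd79a and Vpreb1 and in 1.18% of all windows. The octamer ATTTGCAT, also chosen after the windows were seen and known from immunoglobulin promoters, occurred in Vpreb3, 45 bases before its start site, and in 1.74% of all windows. A match is a description of these letters and not evidence of binding. The 5 windows with an E-box or an octamer follow, 5′ to 3′ on the strand of the gene, with every match to a searched motif in capitals.
Vpreb1 (chr16:16869206-16869505, minus strand): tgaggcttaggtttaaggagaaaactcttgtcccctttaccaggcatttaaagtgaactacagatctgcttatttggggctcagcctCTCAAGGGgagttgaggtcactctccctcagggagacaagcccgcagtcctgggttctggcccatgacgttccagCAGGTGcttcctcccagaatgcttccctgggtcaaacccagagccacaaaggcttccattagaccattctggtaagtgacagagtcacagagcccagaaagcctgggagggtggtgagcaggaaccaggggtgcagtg
Igll1 (chr16:16863936-16864235, minus strand): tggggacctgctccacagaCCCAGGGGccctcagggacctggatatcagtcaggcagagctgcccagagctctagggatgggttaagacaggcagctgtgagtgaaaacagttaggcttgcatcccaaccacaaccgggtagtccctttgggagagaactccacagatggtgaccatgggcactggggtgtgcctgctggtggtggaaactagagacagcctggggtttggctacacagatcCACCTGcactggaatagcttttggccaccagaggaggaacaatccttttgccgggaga
Cd79a (chr7:24897247-24897546, plus strand): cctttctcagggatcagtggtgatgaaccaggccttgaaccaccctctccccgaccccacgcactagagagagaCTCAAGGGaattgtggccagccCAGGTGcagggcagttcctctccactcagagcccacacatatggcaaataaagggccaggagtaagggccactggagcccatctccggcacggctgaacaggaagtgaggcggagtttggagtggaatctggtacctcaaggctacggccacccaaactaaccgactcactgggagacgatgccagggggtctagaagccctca
Rag1 (chr2:101649483-101649782, minus strand): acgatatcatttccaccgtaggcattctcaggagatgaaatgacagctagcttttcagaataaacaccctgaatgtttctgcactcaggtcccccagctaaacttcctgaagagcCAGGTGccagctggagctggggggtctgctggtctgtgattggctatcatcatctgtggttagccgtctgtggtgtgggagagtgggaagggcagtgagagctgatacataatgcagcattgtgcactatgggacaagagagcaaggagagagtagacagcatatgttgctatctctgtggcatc
Vpreb3 (chr10:75948050-75948349, plus strand): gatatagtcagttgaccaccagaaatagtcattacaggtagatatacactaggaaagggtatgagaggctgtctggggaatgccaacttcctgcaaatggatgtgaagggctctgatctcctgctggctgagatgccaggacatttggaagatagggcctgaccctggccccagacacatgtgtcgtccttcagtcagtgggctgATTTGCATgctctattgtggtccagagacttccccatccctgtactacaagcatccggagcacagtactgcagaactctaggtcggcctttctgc

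Surrogate light chain and receptor chain genes led the members, and the recombinase genes and Pax5 were lowest. Of the 9 members 6 were detected, against 28.5% of all Ensembl genes. The 6 were Vpreb3, Cd79b, Cd79a, Igll1, Vpreb1 and Ebf1. The members together held 148 TPM (pup 1) and 154 TPM (pup 2), which is 0.0148% and 0.0154% of all TPM. In descending order of mean TPM they ran Vpreb3, Cd79b, Cd79a, Igll1, Vpreb1, Ebf1, Rag2, Rag1 and Pax5. A step between neighbours in that order counted as exceeding the replicate spread when the log2 ratio had the same sign in both livers and its mean was over 3 SD from 0. By this rule 7 of the 8 steps exceeded the spread, and that from Rag2 to Rag1 did not. The order was taken from the same 2 livers, so this count of steps does not test that order. The authors' credible bounds of TPM, whose level is not given in the sources used here, overlapped in both livers for 2 of the 7, Cd79b to Cd79a and Rag1 to Pax5. With the authors' posterior mean TPM, averaged over the livers, Pax5 (1.62) stood above Rag2 (1.085) and Rag1 (0.875), so its place at the end of the order turns with that estimate. These are levels in whole liver RNA, so a small number of B lineage cells and little RNA per cell cannot be told apart.

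**Figure D1:**
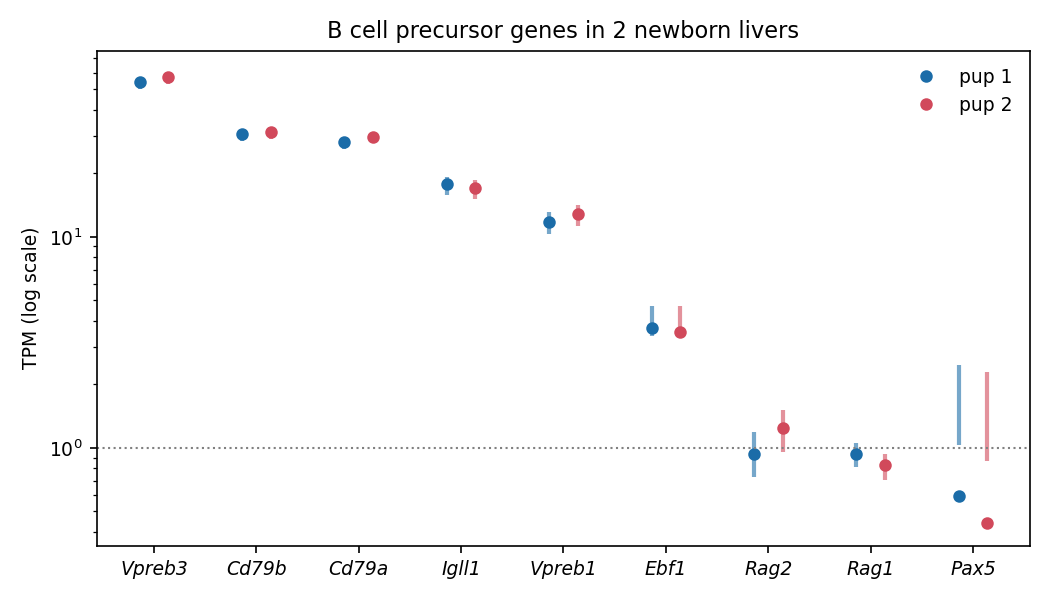
TPM of each member (log axis) in the 2 livers; points are the deposited TPM values, vertical bars the authors' credible bounds, and the dotted line a TPM of 1. Vpreb3 stands highest at 54.1 and 57.1 TPM, and for Pax5 the points lie below their own bounds.

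Vpreb3, whose product associates with the immunoglobulin chains of precursor B cells inside the cell, was the most abundant member. It stood at 54.1 TPM (pup 1) and 57.1 TPM (pup 2), from 1012 and 1076 counts, and ranked 1748 of all Ensembl genes by mean TPM (chromosome 10, 75943057 to 75949657). Both livers were high, and the credible bounds of pup 1 (50.1 to 56.6 TPM) and pup 2 (52.8 to 59.6 TPM) overlapped. Igll1, the lambda5 part of the surrogate light chain, stood at 17.7 TPM (pup 1) and 17.1 TPM (pup 2), from 478 and 467 counts (chromosome 16, 16860671 to 16863985). Vpreb1, its partner, stood at 11.8 TPM (pup 1) and 12.8 TPM (pup 2), from 280.5 and 304.7 counts (chromosome 16, 16868403 to 16870843). The genes of these partners lie on the same strand with 4417 bases between them. The log2 ratio of Vpreb1 to Igll1 was -0.50 ± 0.12 (SD, n = 2), so Igll1 was 1.42 times as abundant, which exceeded the spread.

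The near copy Vpreb2, whose product can take the place of VPREB1, was lower. It stood at 2.43 TPM (pup 1) and 2.74 TPM (pup 2), from 28.5 and 32.3 counts. The log2 ratio of Vpreb1 to Vpreb2 was 2.25 ± 0.04, a 4.75-fold difference. Reads that match both genes were divided between them by the authors' counting, so this ratio is uncertain. Vpreb3 exceeded Vpreb1 by 2.18 ± 0.03 on the log2 scale of TPM.

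Cd79a and Cd79b encode the signal chains of the pre-B and B cell receptors, which pair with each other. Cd79b stood at 30.5 TPM (pup 1) and 31.4 TPM (pup 2), from 1197 and 1242 counts (chromosome 11, 106311341 to 106314762). Cd79a stood at 28.1 TPM (pup 1) and 29.6 TPM (pup 2), from 1357 and 1440 counts (chromosome 7, 24897381 to 24902197). The pair was close to equal in both livers, with a log2 ratio of Cd79a to Cd79b of -0.10 ± 0.03. That ratio passed the rule on the spread, but the credible bounds of the genes overlapped in both livers, and on expected counts not corrected for length it turned to 0.20.

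The recombinase genes were close to a TPM of 1. Rag1, which holds the DNA-cutting site of the recombinase, stood at 0.94 TPM (pup 1) and 0.83 TPM (pup 2) (chromosome 2, 101638282 to 101649501). Because its transcript is long, these values rested on 218 and 193 counts. Rag2, its partner, stood at 0.94 TPM (pup 1) and 1.24 TPM (pup 2), from 95.6 and 104.5 counts (chromosome 2, 101624718 to 101632529). The log2 ratio of Rag1 to Rag2 was 0 in pup 1 and -0.58 in pup 2, and its mean of -0.29 ± 0.41 did not exceed the spread. On expected counts, which do not correct for length, the ratio was 1.04. Both genes lie within the gene B230118H07Rik, which stood at 13.3 and 16.1 TPM, and the sources used here do not give whether counting used strand. Reads in the overlap could therefore have been divided differently, and this was not tested.

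Dntt, the polymerase that adds untemplated bases at the joins and is known to be scarce in fetal B lymphopoiesis, was low at 0.27 and 0.30 TPM from 19 and 21 counts. Rag1 exceeded Dntt by 1.63 ± 0.23 on the log2 scale of TPM. All 12 genes of the partners of recombination and end joining were detected. Their use is not limited to B lineage cells. Hmgb1, a DNA-bending cofactor of RAG, stood at 368 and 350 TPM, its relative Hmgb2 at 184 and 173 TPM, and the Ku subunits Xrcc6 at 20.1 and 18.6 TPM and Xrcc5 at 9.00 and 9.45 TPM. The ligase Lig4 stood at 1.17 and 1.29 TPM.

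Ebf1, the factor that commits lymphoid progenitors to the B lineage, stood at 3.69 TPM (pup 1) and 3.56 TPM (pup 2), from 469.3 and 508.5 counts (chromosome 11, 44617317 to 45008091). The livers did not differ beyond their credible bounds, 3.41 to 4.73 and 3.39 to 4.69 TPM. Mesenchymal cells also express Ebf1, and all 13 mesenchymal and stellate markers were detected. They summed to 294 TPM (pup 1) and 276 TPM (pup 2), led by Dcn (128 and 125 TPM), Col3a1 (53.1 and 43.8 TPM), Col1a1 (33.1 and 26.0 TPM) and Lum (22.9 and 20.1 TPM). The part of mesenchymal cells in the Ebf1 level was not tested. Ebf1 exceeded the mesenchymal receptor gene Pdgfra (1.06 and 1.09 TPM), the lowest of the 13 by mean TPM, by 1.75 ± 0.07 on the log2 scale. The paralogs Ebf2, Ebf3 and Ebf4 were at or under 0.09 TPM.

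Pax5, which keeps cells in the B lineage, had the lowest TPM, but not the lowest posterior mean TPM. It stood at 0.59 TPM (pup 1) and 0.44 TPM (pup 2), from 21.4 and 16.3 counts (chromosome 4, 44524757 to 44710487). Its credible bounds, 1.03 to 2.48 TPM and 0.867 to 2.28 TPM, lay above these values in both livers. Of the 9 members, Pax5 alone had a TPM outside its bounds. This held for 4.79% of genes with a mean of 1 TPM or over, and for 12.5% of those between 0.3 and 1. The authors' posterior mean TPM of Pax5 was 1.70 in pup 1 and 1.54 in pup 2, so the call that Pax5 lies under a TPM of 1 ends with that estimate. The table lists 20 Pax5 transcripts, of which 6 were given counts in a liver. The log2 ratio of Ebf1 to Pax5 was 2.83 ± 0.26 from TPM and 1.31 from posterior mean TPM. None of the 11 other EBF and PAX genes was detected, and the highest by TPM were Pax8 (0.02 and 0.22 TPM), Pax9 (0.09 and 0.12 TPM), Ebf4 (0.09 and 0.07 TPM) and Pax1 (0.03 and 0.02 TPM). By posterior mean TPM the highest was Pax6 (0.74 and 0.73), whose TPM of 0.01 in both livers lay below its bounds.

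Other transcription factors of the early lymphoid and B lineage were mostly above Ebf1. Of the 22 listed, 21 were detected, and Irf4 was at 0.96 and 0.82 TPM. The 4 highest were Id2 (206 and 320 TPM), Id3 (67.8 and 68.9 TPM), Spi1 (27.7 and 30.7 TPM) and Irf8 (27.2 and 24.6 TPM). Id2 and Id3 inhibit E proteins, and Spi1 and Irf8 also act in myeloid cells. Tcf3, the source of the E2A proteins, stood at 24.97 and 25.86 TPM. Pou2af1, a coactivator at octamer sites in B cells, stood at 6.04 and 6.43 TPM.

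Genes of the pro-B and pre-B stages were present over a wide range. Of 19 listed, 16 were detected, led by Cd24a (404 and 390 TPM), Cd9 (214 and 217 TPM), Ly6d (19.8 in both livers) and Cd38 (17.9 and 17.0 TPM). Cd24a is also expressed by red cell precursors and Cd9 by megakaryocytes, so these levels are not those of B lineage cells alone. The receptor for interleukin 7, Il7r, which precursors in the mouse need to grow, stood at 2.43 and 2.22 TPM and exceeded Flt3 (1.31 and 1.16 TPM) by 0.91 ± 0.03 on the log2 scale. The cytokine gene Il7 itself stood at 0.65 and 0.70 TPM, and the chemokine gene Cxcl12, which attracts B cell precursors, at 109 and 118 TPM. Of the 12 measured genes of cytokine support, 10 were detected; Socs2 (58.1 and 74.0 TPM), Jak1 (43.7 and 29.5 TPM) and Cish (21.2 and 16.2 TPM) followed Cxcl12.

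All 14 genes of pre-B cell receptor signalling were detected. The highest were Ptpn6 (40.2 and 34.7 TPM), Lyn (22.2 and 21.2 TPM), Pik3ap1 (18.3 and 13.8 TPM) and Vav1 (12.4 and 11.4 TPM), which myeloid cells also use. Blnk, the adaptor that links the receptor to its kinases, stood at 4.32 and 4.76 TPM, and the B lineage kinase Blk at 2.82 and 3.26 TPM.

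Igkc and Ighm led the constant genes of the immunoglobulin loci. Igkc, the kappa constant gene, stood at 85.5 TPM (pup 1) and 83.5 TPM (pup 2), from 681 and 670 counts. Ighm, the constant gene of the mu heavy chain, stood at 63.8 and 63.7 TPM, from 3557 and 3568 counts. Igkc was given a length of 323 nt in the table, and the log2 ratio of Ighm to Igkc, -0.41 ± 0.02 on TPM, was 2.40 on expected counts. Ighd, the delta constant gene that mature B cells use beside Ighm, stood at 1.04 and 1.24 TPM, and Ighm exceeded it by 5.81 ± 0.18 on the log2 scale. Iglc2, a lambda constant gene, stood at 1.11 and 1.16 TPM; Iglc1 and Iglc3 were not analysed here. The switched constant genes Ighg1, Ighg2c, Ighg3, Igha and Ighe had 0 counts in both livers, and Ighg2b had 2 and 1. Such a 0 leaves room for 3 counts in a library, or 0.0712 CPM (counts per library total) in pup 1 and 0.0724 in pup 2.

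Variable segments, summed after the constant genes had been seen, were spread over many genes. Of 113 heavy chain V genes 84 had at least 1 count in pup 1 and 83 in pup 2, with sums of 488 and 438 counts. Of 97 kappa V genes 76 and 74 had at least 1 count, with sums of 478 and 483 counts. The 3 lambda V genes summed to 54 and 58 counts. The most abundant was Ighv3-6 for the heavy chain (25 and 34 counts) and Igkv19-93 for kappa (40 and 46 counts). V genes resemble each other, so the division of reads among them is uncertain. Igll1 lay below Igkc, with a log2 ratio of -2.28 ± 0.01 on TPM and -0.52 on expected counts, which do not correct for length.

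Genes of mature B cells had a lower median than the members. Of 17 listed, 11 were detected, with a median of 1.79 TPM in pup 1 and 1.91 TPM in pup 2, against 11.8 and 12.8 TPM over the 9 members. The members include Cd79a and Cd79b, which mature B cells keep. The 19 pro-B and pre-B genes had medians of 4.81 TPM (pup 1) and 3.78 TPM (pup 2), also below the members. Among the highest were Cd37 (27.9 and 26.0 TPM), Cd55 (11.6 and 9.31 TPM) and S1pr1 (9.09 and 9.76 TPM), which other blood cells or vessels also express. Ms4a1, which encodes CD20 of maturing B cells, stood at 2.88 and 3.35 TPM, and Vpreb1 exceeded it by 1.98 ± 0.07 on the log2 scale. On expected counts, not corrected for length, this ratio turned to -0.16. The genes of follicular B cells Cr2 (0.04 and 0.17 TPM) and Fcer2a (0.05 and 0.04 TPM) were low. The TPM of Cr2 lay below its credible bounds, and its posterior mean TPM was 0.71 and 0.90. Of 7 plasma cell genes, Xbp1 (104 and 119 TPM) and Sdc1 (101 and 87.6 TPM) were highest, both of which hepatocytes express, and Mzb1 stood at 13.7 and 14.5 TPM. The defining Jchain, Prdm1, Derl3 and Tnfrsf17 stayed under 1 TPM, and Derl3, at 0.27 and 0.70 TPM, was the highest of them. The log2 ratio of Pax5 to Prdm1 was 1.68 ± 0.56, resting on few counts, and turned to -0.62 on expected counts.

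**Figure D2:**
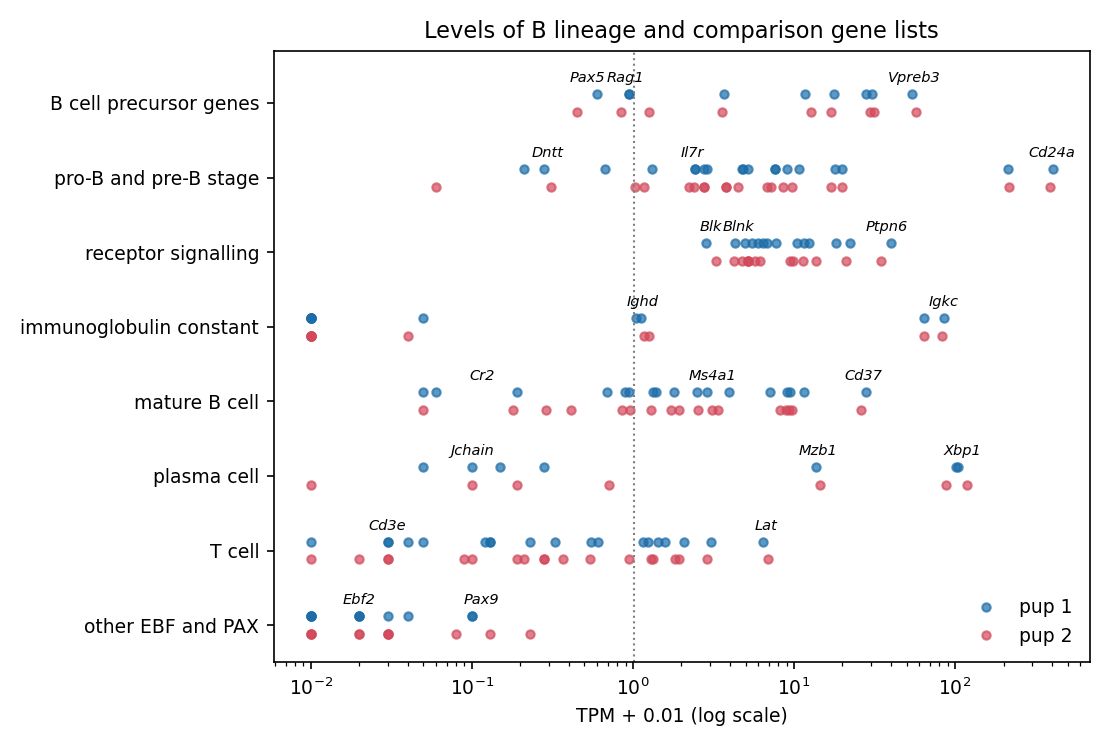
TPM + 0.01 (log axis) of every measured gene of 8 lists, with each point 1 gene in pup 1 or pup 2, the dotted line at a TPM of 1, and selected genes named above their points. Receptor signalling genes all lie right of the line, mature B cell and T cell genes span it, and the other EBF and PAX genes all lie left of it.

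The Rag genes are also used by T cell precursors, so T cell markers were set beside them. Of 19 measured T cell markers, 6 were detected, and the list summed to 19.1 TPM (pup 1) and 19.0 TPM (pup 2). The highest were Lat (6.44 and 6.86 TPM), Lck (3.03 and 2.86 TPM), Trbc2 (2.07 and 1.81 TPM) and Cd3g (1.58 and 1.93 TPM). Trbc1 (1.42 and 1.33 TPM) and Tcf7 (1.23 and 1.28 TPM) were also detected. Of the markers that were not, Cd3e had 1 count in each liver and Themis 0 in both. Ptcra, the pre-T counterpart of the surrogate light chain, had 5 and 4. Vpreb1 exceeded Ptcra by 6.88 ± 0.38 on the log2 scale of TPM. Of 9 NK and innate lymphoid markers 4 were detected, with list sums of 43.2 and 44.4 TPM, among them Gzma (33.2 and 32.5 TPM), Klrd1 (1.79 and 2.39 TPM) and Klrk1 (1.5 and 1.89 TPM). Of 8 plasmacytoid dendritic cell markers 2 were, with list sums of 55.9 and 72.2 TPM. Of these 2, Bst2 (51.9 and 55.6 TPM) is widely expressed and Cox6a2 (1.01 and 14.1 TPM) is also a muscle gene. Tlr7 stood at 1.98 and 0.88 TPM, and Siglech, a defining marker, at 0.46 and 0.42 TPM. The part of these cell types in the Rag levels was not tested.

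The tissue label was checked on its markers. All 10 hepatocyte markers, led by Trf, Apoa1, Ahsg and Apoa2, and all 10 erythroid markers, led by Hba-a2, Hbb-bs, Hba-a1 and Hbb-bt, exceeded 10 TPM in both livers. Of the 10 striated muscle markers, 9 (Acta1, Myl1, Tnnc2, Ckm, Tnnt3, Mylpf, Myh8, Actc1 and Ttn) were at least 2-fold higher in pup 2, and the list summed to 52.5 TPM (pup 1) and 787 TPM (pup 2). The part of muscle tissue in the members' values was not tested. The muscle sodium channel gene Scn4a, which lies 3829 bases from Cd79b on the same strand, had 11 and 8 counts.

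The littermates were close to each other in the members. A difference of at least 2-fold required a log2 ratio of TPM + 1 of 1 or over in either direction, an average of at least 1 TPM, and credible bounds that lay apart. It describes 2 animals with 1 library each and has no replicate check. None of the 7 members that averaged at least 1 TPM met it, against 0.629% of 12711 genes (0.566% higher and 0.0629% lower in pup 2). Their credible bounds overlapped between the livers in 7 of 7, and 20.1% of the 12711 genes had bounds apart (6.27% higher and 13.8% lower in pup 2). At these shares, finding none among 7 genes does not set the members apart from other genes. The median log2 ratio of the 7 members was 0.07, with 5 above 0 and 2 below, beside a median of -0.05 over all genes, of which 36.6% were above 0.

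Single members differed by small amounts on the scale of TPM + 1. On it the log2 ratio of pup 2 over pup 1 was 0.21 for Rag2, 0.11 for Vpreb1, 0.08 for Vpreb3, 0.07 for Cd79a and 0.04 for Cd79b. It was -0.04 for Ebf1, -0.05 for Igll1, -0.08 for Rag1 and -0.14 for Pax5. Adding 1 shrinks the ratios of low members. With a pseudocount of 0.1 they were 0.37 for Rag2, -0.16 for Rag1 and -0.35 for Pax5. Under TMM scaling and under DESeq2 size factors, 7 of the 9 members were above 0 and 2 below, in place of 5 and 4. As a ratio of counts per depth, Vpreb3 stood at 1.08 with an exact 95% counting interval of 0.991 to 1.18. Cd79a stood at 1.08 (1.00 to 1.16), and Igll1 at 0.993 (0.872 to 1.13). Pax5 at 0.774 (0.378 to 1.56) could not be separated from a difference in either direction at this depth. Among genes of 10 to 30 TPM the SD of the log2 ratio was 0.29, and among genes of 30 to 100 TPM it was 0.26, so each member in these ranges lay within 1 SD of 0. The median size of the ratio was smaller, 0.110 and 0.088 in the same ranges. Vpreb1, at 0.113, lay just above the median size of its range, and Igll1, Cd79a, Vpreb3 and Cd79b lay below theirs. The members were thus not unusually close for their level.

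**Figure D3:**
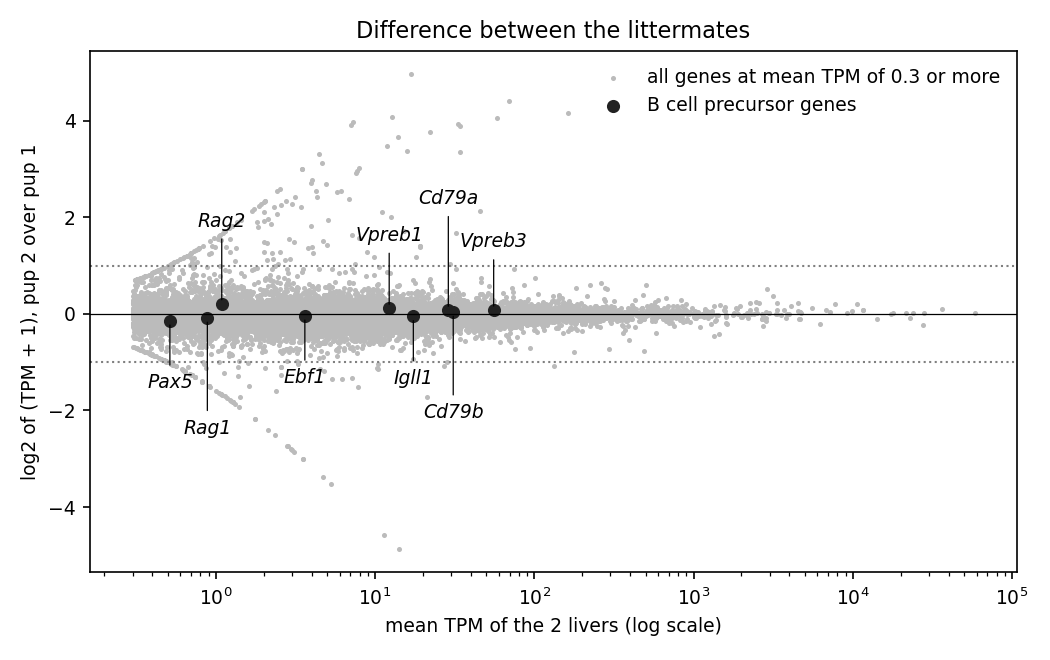
Log2 ratio of TPM + 1, pup 2 over pup 1, against the mean TPM of the livers (log axis) for all genes averaging at least 0.3 TPM (grey) and the 9 members (black). The members lie between -0.14 and 0.21, inside the dotted lines at a 2-fold difference.

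In the related gene lists, the 2-fold rule could call only genes that averaged at least 1 TPM. These were 21 of the 22 transcription factor genes, 16 of the 19 pro-B and pre-B genes and all 14 signalling genes. They were also 4 of the 10 measured constant genes and 11 of the 17 mature B cell genes. None of these genes was at least 2-fold apart, against 0.629% of 12711 genes. At so small a share, the absence of calls in short lists says little about them. Non-overlapping bounds were found for Bcl11a (9.04 and 5.77 TPM), Ets1 (15.9 and 12.7 TPM) and Id2 among the transcription factors. In signalling they were found for Syk (6.01 and 5.20 TPM), Plcg2 (6.38 and 5.18 TPM), Pik3cd (6.74 and 4.22 TPM) and Pik3ap1. All 4 of these signalling genes were lower in pup 2, and 13.8% of all genes had lower, non-overlapping bounds there. Bounds also lay apart, lower in pup 2, for Cd24a, Cd93 (2.87 and 2.39 TPM) and Spn (4.74 and 3.78 TPM) of the pro-B and pre-B genes and for Cd55 of the mature B cell genes. In the recombination, cytokine support and plasma cell lists, among genes averaging at least 1 TPM, they were lower for Prkdc (1.59 and 1.01 TPM), Hmgb2, Jak1, Kitl (3.88 and 1.99 TPM) and Sdc1. In those lists they were higher in pup 2 for Cxcl12, Socs2 and Xbp1. Bounds also lay apart for 10 of 10 hepatocyte markers (5 higher and 5 lower in pup 2) and 8 of 10 erythroid markers (5 higher and 3 lower). The same held for 6 of 13 mesenchymal and stellate markers (1 higher and 5 lower). The list genes outside the B lineage that were called were Des (3.51 and 12.3 TPM), Cox6a2 and the 9 muscle markers.

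The genes closest in level to each member were sought among 82 genes of the B lineage lists, by the root mean square difference in log2(TPM + 1) over the 2 livers. For Igll1 these were Cd38 (0.01) and Foxp1 (0.06), and for Vpreb1 they were Vav1 (0.12) and Ikzf1 (0.23). For Vpreb3 they were Ighm (0.20) and Id3 (0.30). Spi1 and Cd37 were closest to both Cd79a (0.04 and 0.13) and Cd79b (0.10 and 0.21). For Rag1 they were Cd69 (0.0056) and Irf4 (0.012), for Rag2 Ighd (0.05) and Iglc2 (0.09), for Ebf1 Cd40 (0.12) and Sox4 (0.13), and for Pax5 Ccr6 (0.06) and Dntt (0.25). This is a likeness of level in 2 livers alone.

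Transcripts divided the members into genes with 1 clear form and genes with several. The share of a transcript is its percent of the TPM of its gene, as the authors estimated it. Rag1 and Cd79a have 1 transcript each in the annotation used. In Vpreb3 the 625 nt transcript took 100% in pup 1 and 99.7% in pup 2. In Vpreb1 the 766 nt coding transcript took 93.7% and 95.6%. In Cd79b the 1195 nt transcript, with a coding length of 684 bases, took 97.6% and 96.4%, and the form with a coding length of 864 bases took the rest.

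Igll1 was divided between a 870 nt coding transcript, with 66.9% in pup 1 and 62.6% in pup 2, and a 702 nt transcript with 30.2% and 33.6%. The shorter form is absent from the later GENCODE M21 annotation. Ebf1 was divided over several forms in both livers. Its 3422 nt transcript took 52.5% and 61.2%, and its 5981 nt transcript 23.4% and 29.3%. Both forms have 16 exons, with coding lengths of 1776 and 1773 bases. With posterior mean shares the 3422 nt form averaged 47.7%, in place of 56.8%.

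Rag2 was the member whose forms changed places between the livers. The 3424 nt transcript, with 3 exons, took 70.7% in pup 1 and 38.3% in pup 2, and the 1857 nt transcript, with 2 exons, took 29.3% and 61.7%. Both have a coding length of 1581 bases. The counts behind them were 78.4 and 56.4 for the longer form and 17.2 and 48.1 for the shorter. The credible bounds of each form overlapped between the livers, for the shorter 0.0033 to 0.555 TPM in pup 1 and 0.375 to 1.08 TPM in pup 2. On counts, the longer form led in both livers. The leading form also differed between the livers for Pax5, on at most 8.61 counts per transcript. A change of leading transcript was thus found in 2 of the 7 members with several transcripts, against 16.3% of 12067 such genes with counts in each liver, and 21.2% of the 2952 of these at a mean TPM of 0.3 to 3. With posterior mean shares the leading form of Pax5 was the same in both livers, and on counts those of both Rag2 and Pax5 were.

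**Figure D4:**
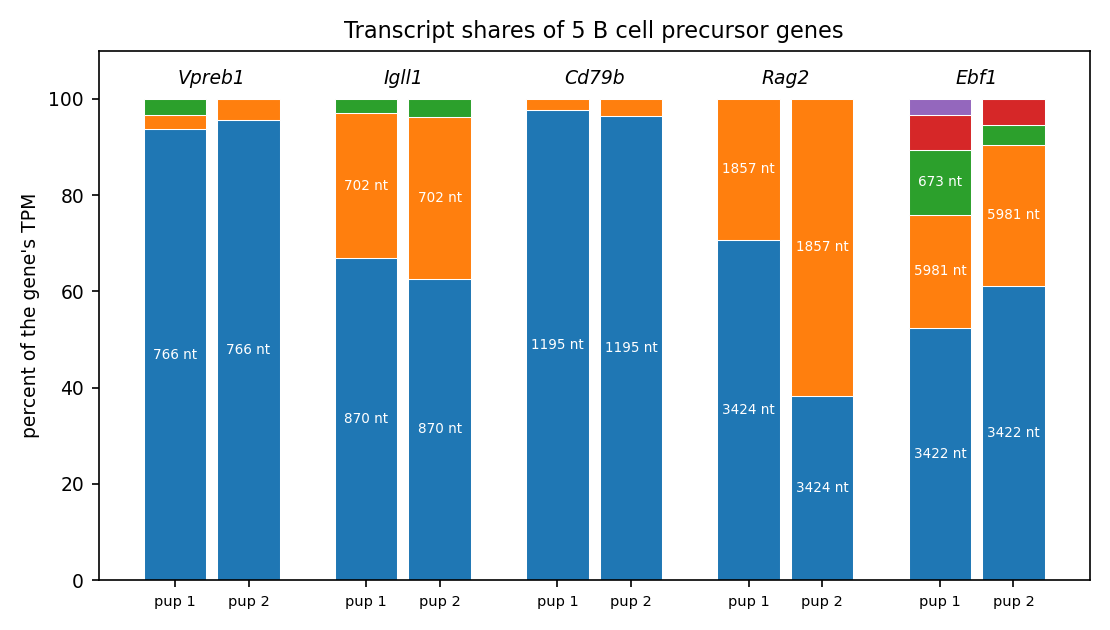
Percent of the TPM of a gene given to each of its transcripts in pup 1 and pup 2 for Vpreb1, Igll1, Cd79b, Rag2 and Ebf1; each colour within a gene is 1 transcript, named by its length where it takes over 9%. The leading form is the same in both livers for Vpreb1, Igll1, Cd79b and Ebf1, and the 2 forms of Rag2 change places.

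Genes that overlap a member could have taken or given reads where counting ignored strand, which was not tested. Top3b, on the opposite strand, overlaps Vpreb1 by 108 bases and stood at 15.4 and 14.7 TPM. The antisense gene Gm12158 within Ebf1 had 15 and 6 counts. Within Pax5, the antisense gene Gm12462 had 5 and 1 counts and 5730488B01Rik had 14.6 and 13.7 counts, close to the count of Pax5 itself. Arhgef1, which begins 714 bases after Cd79a on the same strand, stood at 20.9 and 21.3 TPM.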

How the data were processed

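Total RNA-seq was deposited for the livers of 2 littermates, 1 library each. The authors deposited tables in the layout RSEM writes, on mm10 and GENCODE M4 (a note deposited beside them names both); the aligner and counter: not given in the sources used here. Among the deposited values, expected counts are the authors' estimates of reads per gene, with reads matching several genes divided among them. TPM was deposited by the authors as reads per effective length, scaled to a fixed total, and FPKM was deposited likewise per length and library size. The percent of a gene's TPM given to each transcript was deposited by the authors too. The other deposited values used were the authors' credible bounds of TPM.

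Symbols matched 42462 of 43346 Ensembl identifiers; coordinates are from GENCODE M21, on GRCm38 (mm10). Members and lists were chosen with earlier results of these data known. The 207 listed genes fell into 16 lists. Of 19 gene pairs, 16 could be measured, since 1 gene was not analysed here and 2 pairs held a gene under 4 counts; 15 of the 16 exceeded the spread. The text names all members, the genes of every pair, the 4 highest genes of each list, those at least 2-fold apart, the genes closest in level to each member, and a fixed set of stage genes. Others (Lig4, Tcf3, Pou2af1, Irf4, Il7, Blnk, Blk, Cr2, Fcer2a, Themis, the antisense and neighbouring genes, genes whose bounds did not overlap, and Pax6) were named after their values were seen. So were Trbc1 and Tcf7. Livers were compared on log2(TPM + 1), a scale that understates changes of low genes. Since 2 livers cannot give a sign permutation p below 0.5, no p-value is printed. Pups are separate animals of 1 litter. Intervals cover counting error only, since there is 1 library per pup. Reads carry no molecular identifiers, so copies of 1 molecule cannot be told apart and the intervals may be too narrow. Protein sequences were not used here, and some genes that this rule names are not reported here. TMM factors came from edgeR 4.0.16 and size factors from DESeq2 1.42.0 in R 4.3.3, on expected counts rounded to whole numbers; other steps used Python 3.11.15, pandas 2.3.3, numpy 2.4.6, scipy 1.17.1 and matplotlib 3.10.9. The 2-fold rule and the counting interval were tested on simulated data. The simulation held counting error but no spread between animals, and its bounds came from the simulated counts. It therefore cannot show how the rule behaves with the authors' credible bounds on 2 pups.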

Additional observations from a re-analysis of the deposited data

How the results depend on the processing

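The number of detected members was 6, and it was 8 at a threshold of 0.5 TPM, 6 at 2, 6 with FPKM and 7 with posterior mean TPM. From 1 liver alone it was 6 to 7, and the summed level of the members 148.3 to 154 TPM. The summed level of 151.2 TPM moved to 166.6 with TPM taken over protein-coding genes and to 129.2 with FPKM, since both rescale every gene. On expected counts in place of TPM, 5 pair ratios changed sign, because counts are not corrected for length: Rag1 to Rag2 became 1.037, Cd79a to Cd79b 0.1972, Vpreb1 to Ms4a1 -0.1636, Ighm to Igkc 2.399 and Pax5 to Prdm1 -0.6197. With FPKM, the ratio of Pax5 to Prdm1 (1.763) no longer exceeded the spread. Within a library FPKM and TPM differ by a common factor, so only rounding of the deposited values can move such a ratio. On TPM this ratio passed the rule narrowly, at 1.682 with an SD of 0.556. For the 2-fold rule, 5 alternatives were run (another pseudocount, TMM, DESeq2 size factors, no filter, posterior mean TPM), and the count over all genes ran from 80 to 112. Each kept the deposited credible bounds, which overlapped between the livers for every member. No member could therefore be called, and the absence of calls shows nothing about stability. The log2 ratio of a member was at most 0.37 in size, for Rag2 with a pseudocount of 0.1. No paired analysis was possible because the study holds 1 group. The number of members with 1 leading transcript in both livers was 7, and 8 with posterior mean shares. Low counts limit the ratios that hold Ptcra, Pax5, Dntt, Prdm1, Vpreb2 or Ighd.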

Other observations

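Some genes of B lineage cells that the report does not set side by side had slightly higher values in pup 2, and others did not; the genes were picked after their values were seen. Pou2af1 stood at 6.04 and 6.43 TPM, Blnk at 4.32 and 4.76 TPM, Blk at 2.82 and 3.26 TPM, Ms4a1 at 2.88 and 3.35 TPM, Tnfrsf13b at 7.04 and 8.17 TPM and Mzb1 at 13.7 and 14.5 TPM in pup 1 and pup 2. Cd72 (9.08 and 8.58 TPM) and Cd37 (27.9 and 26.0 TPM) lay the other way. The credible bounds of the livers overlapped for each of these 8 genes. Tnfrsf13b encodes TACI, a receptor for survival factors of B cells, and Bach2, a repressor of the plasma cell programme, stood at 3.74 and 2.33 TPM, also with overlapping bounds.

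The D and J segments of the heavy chain and the J segments of kappa, 17, 4 and 5 genes in the tables, had 0 counts in both livers, although heavy chain and kappa V segments had 438 to 488. The D and J segments are listed at lengths below the 99 nt by which effective length falls short of length in these tables.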
